A study of Mus musculus with 4 samples.

Results

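The respiratory chain of the inner mitochondrial membrane is built from subunits that are encoded for the most part in the nucleus, and the nuclear genes of its 5 complexes were followed here in the septal nasal mucosa of young adult and aged mice. Genes were taken by symbol (*Nduf* genes of the a, b, c, s and v series for complex I, *Sdh* for complex II, *Uqcr* for complex III, *Cox4* to *Cox8* for complex IV and *Atp5* for complex V) through the accession of each array probe. The gene table held 105 such symbols, 87 of them protein coding and 18 pseudogenes. Probes matched 83 of the protein coding genes, 37 in complex I, 4 in complex II, 8 in complex III, 17 in complex IV and 17 in complex V, out of 45604 genes tested on the array. The other 4 coding genes (*Cox5b*, *Ndufb1*, *Ndufb4b* and *Ndufb4c*) and the pseudogenes were without a matched probe and were not analysed here. The 83 genes were read by 103 of 56605 probes.

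The study asked how gene expression in the nasal mucosa differs with age. Total RNA of septal nasal mucosa, which the labels call olfactory epithelium, came from C57BL/6J mice of 8 weeks (young adult) or 16 months (aged) with no other treatment, and was hybridized to 4 one-color Agilent arrays, 2 per age. Each RNA sample was a pool of 5 mice. The methods give 6 mice per age for gene analyses, fewer than separate pools would need, and do not say whether the pools of an age shared mice. The P-values below therefore measure the spread between these arrays, which may be technical. A description in the labels that names silica and lung disagrees with the other labels and was not used. Each array held 62976 spots, 59305 of them non-control, and spots well above background made up 68.1 and 76.8% of the non-control spots in young adult mice and 63.1 and 72.7% in aged mice. The arrays numbered 1 of both ages lay on the same slide, while those numbered 2 each lay on a slide of its own. The markers *Omp*, of mature olfactory receptor neurons (ORNs), and *Cyp2g1*, of sustentacular cells, were well above background on all 4 arrays.

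Complex I (NADH dehydrogenase) and complex II (succinate dehydrogenase) pass electrons to ubiquinone, complex III passes them on to cytochrome c, complex IV (cytochrome c oxidase) reduces oxygen, and complex V (ATP synthase) uses the proton gradient to make ATP. Several subunits of complex IV exist as isoforms encoded by separate genes, a widely expressed one and one known from heart and skeletal muscle, lung or testis. In the olfactory mucosa mitochondria supply ATP to ORNs, whose ion pumps are active throughout odor transduction, and to the sustentacular cells around them, which are rich in detoxifying enzymes.

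Levels are normalized intensities, and differences are aged minus young adult on the log2 scale. A gene was called when limma's test gave a P below 0.05 with a Benjamini-Hochberg false discovery rate (FDR) below 0.25 over all genes tested. Of the 83 genes, 1 was called higher in aged mice, *Cox8b*, the form of cytochrome c oxidase subunit 8 known from heart and skeletal muscle. The 1 gene called lower was *Ndufa4l2*, a homologue of the subunit gene *Ndufa4* that is known to be induced by hypoxia. Of all genes tested, 1.65% were called higher and 2.33% lower, so a share of 2 in 83 lay near the background of 3.98%. At an unadjusted P below 0.05, 4 of the 83 genes passed, against 13.1% of all genes. None of the 83 also had a fold change of at least 1.5 with a mean level of at least 100, which 1.96% of all genes had. With 2 arrays per age, a gene that was not called may still differ. The arrays measure bulk tissue, so fewer cells of a type and less RNA per cell cannot be told apart.

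**Figure D1:**
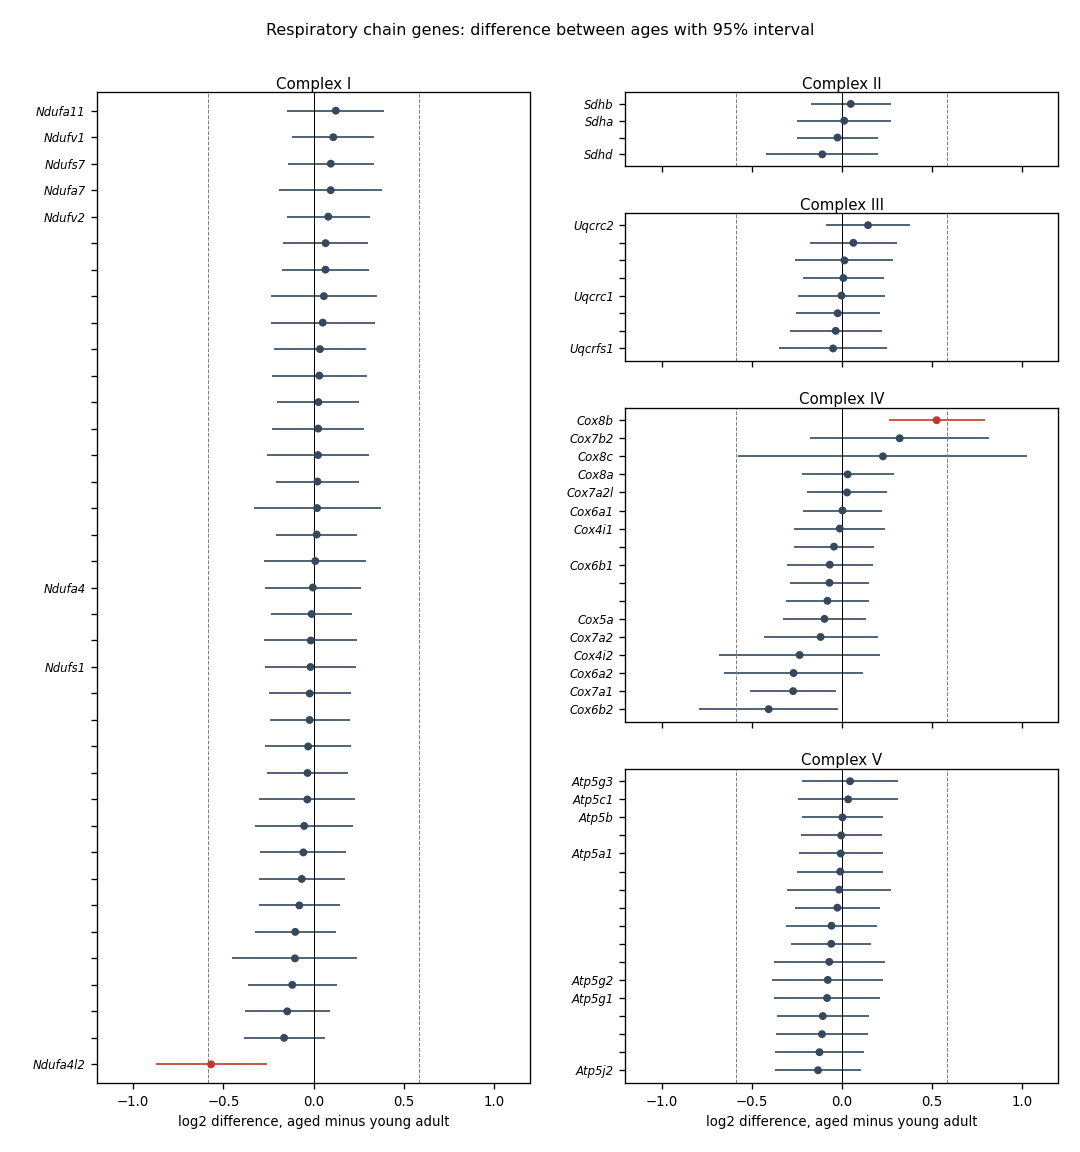
Difference between ages of each of the 83 respiratory chain genes, by complex, with the genes named in the text labelled. Points are log2 differences (aged minus young adult, 2 arrays per age), lines are limma's 95% intervals, red marks the called genes and dashed lines mark a 1.5-fold difference either way. Most points lie near 0, with the wider scatter among complex IV isoforms.

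The differences were small for most of the 83 genes, though less so in complex IV. The median of the 83 log2 differences was -0.016, with 33 positive and 50 negative, and it was 0.0013 within the slide that held both ages. The median size of the difference, regardless of sign, was 0.053, against 0.17 for all genes tested. Respiratory chain genes are bright on the array, and brighter spots scatter less, so the comparison was also made among the 2068 genes with a mean level of at least 10000. There the median size was 0.081 for all genes and 0.047 for the 64 respiratory chain genes. A difference under 0.2 in size was found for 75 of the 83 genes (90.4%), for 56.4% of all genes and for 82.3% of the genes at 10000 or more. For 76 of the 83 (91.6%) the whole 95% interval of the difference lay within 1.5-fold either way, as it did for 47.0% of all genes. Among the bright genes that share was 98.4% of the respiratory chain and 90.9% of all. Complex IV had 10 of 17 genes (58.8%) under 0.2 in size and 64.7% of intervals within 1.5-fold. These shares are descriptions of the genes and were not tested against each other.

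**Figure D2:**
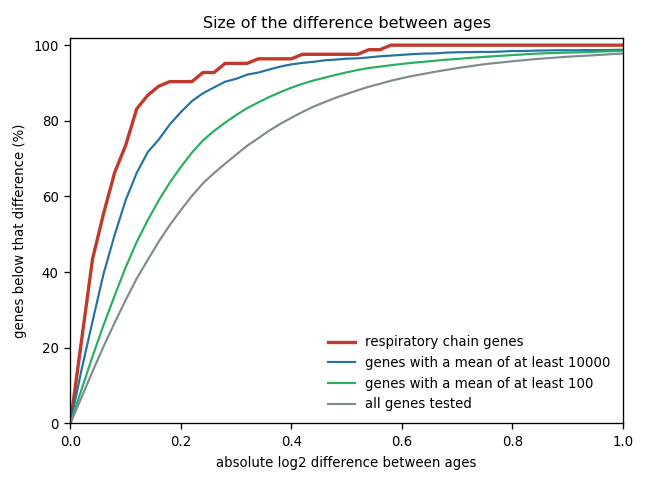
Share of genes (%) whose absolute log2 difference between ages lies below the value on the horizontal axis, for the 83 respiratory chain genes, all 45604 genes tested, and genes with a mean level of at least 100 or 10000. At a difference of 0.2 the curve of the respiratory chain is at 90.4% and that of all genes at 56.4%.

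Both aged arrays lay above both young adult arrays for 12 of the 83 genes and below them for 24, and the ages overlapped for 47. Over all genes tested, 24.2% lay above, 21.8% lay below and 46.0% did not overlap, beside 43.4% without overlap among the 83 genes. Among genes with a mean level of at least 10000, 58.3% did not overlap, against 37.5% of the respiratory chain genes at that level. This difference in shares was not tested. The genes that lay below were 10 of complex I, 9 of complex IV and 5 of complex V. Of the 83 genes, 80 were well above background with every probe on all 4 arrays. Among the 18 genes read by more than 1 probe, the log2 differences of a gene's probes spanned a median of 0.063. The widest span, 0.26 for *Ndufa7*, came from a probe that was well above background on no array, and the next was 0.18 for *Atp5b*. For 7 genes, *Ndufa7* among them, the probes differed in sign.

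In complex I the median log2 difference over 37 genes was -0.0046, with 18 positive and 19 negative, and its sign turned within the slide that held both ages, with 75th percentile scaling and with single arrays left out. The subunits that oxidize NADH include *Ndufs1*, which carries iron-sulfur clusters, and *Ndufv1*, which binds the flavin. *Ndufs1* had levels of 15892 and 16950 in young adult mice and 15929 and 16500 in aged mice, values that overlapped completely. *Ndufv1* had levels of 17431 and 16842 against 18431 and 18515, so both aged arrays were the higher ones. Its log2 difference of 0.11 (standard error 0.08) was not called (limma FDR = 0.617). The third gene of this module, *Ndufv2*, had a difference of 0.081.

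The 4 genes of the module that hands electrons to ubiquinone had a median difference of 0.066, with the highest, 0.095, for *Ndufs7*, which carries the last iron-sulfur cluster. Both aged arrays were above both young adult arrays for 3 of these 4 genes, as they were for 24.2% of all genes tested. The limma FDR of *Ndufs7* was 0.669, and none of the 4 genes was called. Among the accessory subunits, which surround this core, *Ndufa11* had the highest difference of the complex (0.12, limma FDR = 0.629), which ran from 0.056 to 0.19 over the alternatives. The 10 *Ndufb* genes of the membrane arm ran from -0.16 to 0.050, with a median of 0.018 that was negative with the processed signal, cyclic loess and 3 of the left-out arrays. The other 12 *Ndufa* genes, leaving out *Ndufa4* and *Ndufa4l2*, ran from -0.10 to 0.12, with a median of -0.019 that was positive without aged array 2. The 4 other *Ndufs* and *Ndufv* genes had a median of -0.062, negative in every setting tried. For 3 of them both aged arrays were lower, as for 21.8% of all genes. None of these groups held a called gene.

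Complex II is also an enzyme of the tricarboxylic acid (TCA) cycle and has no subunit encoded in mitochondrial DNA. *Sdha*, its flavoprotein, had levels of 7323 and 7951 in young adult mice and 7643 and 7755 in aged mice, with the aged values inside the young adult range. *Sdhb*, the iron-sulfur subunit, had levels of 17836 and 18056 against 18513 and 18618. Both aged arrays were higher for *Sdhb*, by a log2 difference of 0.049 that was not called (limma FDR = 0.81). The membrane anchor *Sdhd* had the lowest difference of the 4 genes (-0.11, from -0.19 to -0.027 over the alternatives), with overlapping ages. The median over the 4 genes was -0.0059, and its sign depended on the setting.

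In complex III the median over 8 genes was 0.0029, with 4 positive and 4 negative, and it was negative with cyclic loess, with the processed signal and with 1 of the arrays left out. *Uqcrc1*, a core subunit, had levels of 17440 and 16940 in young adult mice and 17586 and 16747 in aged mice, so the ages overlapped. *Uqcrfs1*, the Rieske iron-sulfur protein, also overlapped, with a difference of -0.049. *Uqcrc2*, the other core subunit, had levels of 18665 and 18201 against 20035 and 20722. It was the highest of the complex, with a log2 difference of 0.14 (95% interval -0.086 to 0.38) that was not called (limma FDR = 0.536).

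For ATP synthase, 14 of the 17 genes had a negative difference and the median was -0.058. The median was negative in every setting tried, but came to -0.010 within the slide that held both ages, where 9 of the 17 genes were negative. No gene of the complex was called, and all 17 intervals lay within 1.5-fold. The F1 part of the enzyme, which includes the catalytic head, was read by 5 genes. Of these, 3 had overlapping ages and 2 had both aged arrays lower, as 21.8% of all genes had. *Atp5b*, the catalytic beta subunit, had levels of 24235 and 23998 in young adult mice and 24409 and 23925 in aged mice. The alpha subunit gene *Atp5a1* (-0.0067) and the gamma subunit gene *Atp5c1* (0.035) also overlapped. The 9 genes of the stator and the small membrane subunits all had negative differences, down to -0.13 for *Atp5j2*, which encodes subunit f. Only 5 of the 9 were negative on the slide shared by both ages, and likewise without young adult array 2. *Atp5j2* had levels of 21576 and 20414 in young adult mice and 19318 and 18980 in aged mice. Both aged arrays were the lower ones, and the limma FDR was 0.576. The 3 genes of the c ring, *Atp5g1*, *Atp5g2* and *Atp5g3*, encode the same mature protein, and all 3 overlapped, with differences of -0.082, -0.078 and 0.045.

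Complex IV held the widest spread of differences. Its 17 genes had a median of -0.067, negative in every setting tried, and ran from -0.41 to 0.53. The 10 widely expressed subunits stayed within -0.12 to 0.032. *Cox4i1*, the widely expressed form of the regulatory subunit 4, had levels of 64125 and 60456 in young adult mice and 60378 and 63154 in aged mice, with overlapping ages. *Cox5a*, which binds thyroid hormone metabolites, had levels of 47930 and 46175 against 43781 and 44216, with both aged arrays lower and a log2 difference of -0.097 (limma FDR = 0.652). In all, 5 of the 10 widely expressed genes had both aged arrays below both young adult arrays, against 21.8% of all genes. Among genes with a mean level of at least 10000, 589 of 2068 lay below. For 1 of the 10, *Cox7a2l*, both aged arrays lay above. None of the 10 was called.

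Of the 7 tissue-restricted isoforms, *Cox8c* was well above background on no array, so its difference is not read. The other 6 spanned that whole range, 2 of them positive and 4 negative, though 3 of the 6 were under 0.2 in size on the slide shared by both ages. The ages did not overlap for any of the 6, against 46.0% of all genes without overlap. The 1 call among them was *Cox8b*.

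**Figure D3:**
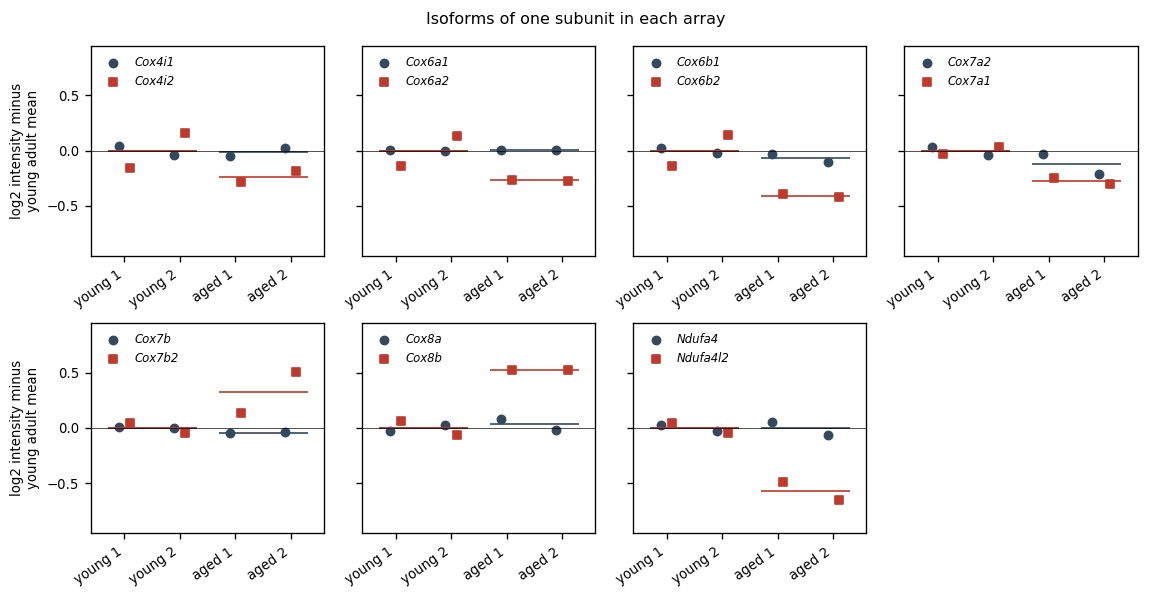
Level of both isoform genes of each subunit in each array, as log2 intensity minus that gene's own young adult mean. Circles are the widely expressed gene, squares the tissue-restricted one, and short lines the mean of each age (2 arrays). *Cox8b* lies above 0 and *Ndufa4l2* below 0 on both aged arrays, while their partners *Cox8a* and *Ndufa4* overlap between ages.

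*Cox8b* had levels of 36732 and 33540 in young adult mice and 50466 and 50564 in aged mice. Both aged arrays were above both young adult arrays, and the gap between ages was wider than the spread within either. The mean rose from 35136 ± 2257 (SD, n = 2 arrays) to 50515 ± 69.1, a log2 difference of 0.53 with a standard error of 0.09 (limma FDR = 0.233). The fold change of 1.44 was below 1.5. Within the slide that held both ages the difference was 0.46, and between the other arrays it was 0.59. With any single array left out, no gene of the whole array was called, *Cox8b* included (limma FDR 0.422 to 0.683), and its log2 difference stayed at 0.46 to 0.59. *Cox8a*, the widely expressed form of the same subunit, had levels of 100962 and 104501 in young adult mice and 108824 and 101366 in aged mice. The ages overlapped for *Cox8a*, with a log2 difference of 0.032 (95% interval -0.22 to 0.29). The difference between the responses of the 2 genes was not tested.

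The promoter sequences of this pair are shown because its members differ in their calls and in the kind of promoter they have. The sequences are those of RefSeq (build GRCm38.p6), 250 bases before to 50 bases after the annotated start, on the minus strand at chr7:140900397-140900696 for *Cox8b* and at chr19:7217567-7217866 for *Cox8a*. Capitals mark CAGCTG, an E-box of the kind bound by muscle regulatory factors, and TATAAA, the letters of the TATA box, in *Cox8b*, and CTTCCGG, an ETS-type motif on the other strand, in *Cox8a*.
Cox8b: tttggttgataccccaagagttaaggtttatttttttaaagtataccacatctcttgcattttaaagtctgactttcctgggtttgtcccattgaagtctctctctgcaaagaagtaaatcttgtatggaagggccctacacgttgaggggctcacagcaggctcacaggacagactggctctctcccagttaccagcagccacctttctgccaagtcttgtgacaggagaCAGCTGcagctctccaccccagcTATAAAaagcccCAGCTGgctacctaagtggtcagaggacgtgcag
Cox8a: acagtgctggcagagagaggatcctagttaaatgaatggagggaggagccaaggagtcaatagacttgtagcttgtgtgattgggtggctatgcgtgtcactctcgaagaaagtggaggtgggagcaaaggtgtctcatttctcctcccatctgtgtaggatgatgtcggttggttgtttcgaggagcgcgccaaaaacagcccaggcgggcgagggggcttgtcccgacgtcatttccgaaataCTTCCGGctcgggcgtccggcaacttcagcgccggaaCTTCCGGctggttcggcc
In *Cox8b* the E-boxes begin at bases 232 and 267 of the window and the TATA box at base 255, just after the annotated start. The window of *Cox8b* holds 2 CpG and that of *Cox8a* holds 19. In *Cox8a* the ETS motifs begin at bases 246 and 283. CAGCTG and TATAAA were searched after the *Cox8b* sequence had been read.

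Of the 83 genes, 67 could be matched to 72 promoter windows of this length. The NRF1-type motif GCGCANGCG was present in 29.2% of them, against 6.25% of all 32851 windows and 8.58% of those of protein coding genes. The ETS motif CCGGAAG was present in 23.6% (8.86% of all windows, 11.6% of coding ones) and the YY1-type motif AAGATGGCG in 9.72% (1.4 and 1.83%). All motifs were searched on both strands. The median number of CpG per window was 19, against 7 in all windows and 13 in those of coding genes. TATAAA was in 12.5% of the respiratory chain windows and 13.6% of all, and CAGCTG in 8.33 and 16.3%. Windows of 4 tissue-restricted isoforms were among them (*Cox6b2*, *Cox7a1*, *Cox7b2* and *Cox8b*), and none of the 4 held the NRF1-type, ETS or YY1-type motif, nor did 5 of the 8 windows of widely expressed complex IV genes. A match describes the letters of these windows and says nothing of binding.

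*Cox8b* is also known from brown fat, so markers of muscle and fat were read beside it. Of all genes tested, 1.65% were called higher and 2.33% lower. Of 22 skeletal muscle markers, 2 were called higher, *Myh7*, the slow myosin heavy chain (log2 difference 1.31, limma FDR = 0.168), and *Tnnt1*, slow troponin T (0.76, FDR = 0.185). *Tnnt1* was the brightest of the list. The other 20 were not called and the median of the list was -0.15, with 14 negative. *Acta1*, skeletal muscle actin, had levels of 1575 and 1924 in young adult mice and 1456 and 1562 in aged mice, lower in both aged arrays. *Ckm*, muscle creatine kinase, was well above background on 1 array, and *Myh4* and *Ckmt2* on none. The summed level of the 22 markers was 8166 and 8602 in young adult mice and 10927 and 11335 in aged mice. Bright genes weigh most in such a sum, and the brightest here, *Tnnt1*, was a called one. Of 8 brown fat markers, 1 was called higher, *Cidea*, a lipid droplet protein (0.63, limma FDR = 0.208), which was also the brightest, and none was called lower. *Ucp1*, the defining gene of brown fat, was well above background on no array, nor was *Elovl3*. The summed level of the 8 was 10179 and 10140 in young adult mice and 12243 and 12386 in aged mice. *Cidea* alone had levels of 4558 and 4918 in young adult mice and 7184 and 7449 in aged mice. Of the 8 differences, 5 were negative. Their median of -0.044 was positive on the slide shared by both ages, without young adult array 1 and without aged array 2. The part of these cell types in the difference of *Cox8b* was not tested.

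*Cox7a1* and *Cox6a2*, the other heart and muscle isoforms, had differences of the opposite sign. *Cox7a1* had levels of 2812 and 2934 in young adult mice and 2425 and 2338 in aged mice. The aged values were lower on both arrays, by a log2 difference of -0.27 with a standard error of 0.08, which passed the limit on P but not that on FDR (limma FDR = 0.342). *Cox6a2* had levels of 125 and 151 against 115 and 114, lower in both aged arrays by -0.27 (limma FDR = 0.499), a value that came to -0.13 on the slide shared by both ages. Their partners *Cox7a2* (-0.12) and *Cox6a1* (0.0032) overlapped between ages.

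*Cox6b2*, *Cox7b2* and *Cox8c* are known from testis. *Cox6b2* had levels of 633 and 766 in young adult mice and 530 and 521 in aged mice. The aged arrays were both lower, with a log2 difference of -0.41 (standard error 0.13) and a limma FDR of 0.365 that missed the limit, and the difference was -0.26 on the slide shared by both ages. Its partner *Cox6b1* had a difference of -0.067. *Cox7b2* had levels of 67.3 and 63.0 against 71.4 and 92.6, and was not well above background on aged array 1. Its difference of 0.32 was not called (limma FDR = 0.526) and rested on aged array 2, being 0.086 within the slide that held both ages. Of 8 germ cell markers, none was called by limma in either direction and 2 had an unadjusted P below 0.05, against 13.1% of all genes. Their brightest gene was *Acr*, and *Odf1* and *Ldhc* stayed near background throughout. The summed level of the 8 was 415 and 546 in young adult mice and 540 and 440 in aged mice, with a median difference of 0.035 whose sign changed with the setting.

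*Ndufa4l2* had levels of 266 and 250 in young adult mice and 184 and 164 in aged mice, so that both aged arrays were lower. The mean fell from 258 ± 11 (SD, n = 2 arrays) to 174 ± 14.2, a log2 difference of -0.57 with a standard error of 0.10 (limma FDR = 0.242). The difference was -0.61 between the arrays on separate slides and -0.53 on the slide shared by both ages. With single arrays left out it was not called either (limma FDR 0.419 to 0.683), and its difference stayed at -0.65 to -0.49. *Ndufa4*, named for complex I and later assigned to complex IV, had levels of 22625 and 21888 against 23129 and 21276, which overlapped. *Cox4i2*, the form of subunit 4 known from lung and from oxygen sensing cells, had levels of 708 and 885 against 650 and 697. *Cox4i2* was lower on both aged arrays, but its difference of -0.23 had a standard error of 0.15 and was not called (limma FDR = 0.59). It came to -0.12 on the slide shared by both ages and ran from -0.40 to -0.074 over the alternatives, so its size rested on young adult array 2.

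*Ndufa4l2* and *Cox4i2* are known to be expressed in pericytes, the mural cells of small vessels. Of 12 markers of pericytes and smooth muscle, 5 were called lower and 0 higher, against 2.33 and 1.65% of all genes. The largest falls were in *Kcnj8*, a potassium channel subunit of pericytes (log2 difference -0.95, limma FDR = 0.184), *Cspg4*, which encodes NG2 (-0.70, FDR = 0.188), and *Myh11*, smooth muscle myosin (-0.64, FDR = 0.208). The median of the list was -0.42, with 10 negative. The brightest gene, *Tagln*, did not move with them, with a difference of -0.0051, and the pericyte marker *Rgs5* had 0.17 with both aged arrays higher. The summed level of the 12 was 65116 and 63194 in young adult mice and 62240 and 61160 in aged mice. Their part in the difference of *Ndufa4l2* was not tested.

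Genes around the respiratory chain were read in 4 lists, beside 3.98% of all genes called. None of the 49 assembly factors, which put the complexes together, was called, and their median was 0.063, with 36 positive and the brightest gene *Cox14* at -0.021. None of 20 genes for cytochrome c, ubiquinone synthesis and other electron carriers was called (median 0.060, brightest *Coq2* at 0.23). None of 18 genes of pyruvate oxidation and the TCA cycle was called (median 0.012, negative without aged array 1, brightest *Mdh2* at 0.13), and all 18 intervals lay within 1.5-fold. None of 78 genes of the mitochondrial ribosome was called (median 0.043, brightest *Mrpl51* at 0.066). At an unadjusted P below 0.05 in limma's test, these 4 lists held 0, 1, 0 and 2 genes, against 13.1% of all genes.

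Regulators of mitochondrial biogenesis include the coactivator gene *Ppargc1a* and the factor genes *Nrf1* and *Tfam*. None of 23 such genes was called, against 3.98% of all genes, and the median was 0.079. In limma's test 2 had an unadjusted P below 0.05, against 13.1% of all genes. The brightest, *Nfe2l2*, a factor of the response to oxidative stress, had a difference of 0.26 (limma FDR = 0.374) and was called in 3 of 13 alternatives (lowest FDR 0.0363). Of 10 adenine nucleotide and phosphate carriers, porins and uncoupling proteins, none was called and none had a P below 0.05, with a median of -0.042 and the brightest gene *Vdac1* at 0.064. Subunits that the symbols of the rule leave out were *Cyc1* (0.11), *Ndufab1* (0.012) and the ATP synthase inhibitor gene *Atpif1*, the brightest (-0.059), and none was called or had a P below 0.05. No probe could be matched to the subunits encoded in mitochondrial DNA, which were not analysed here.

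Glycolysis, the other route to ATP, had 22 genes on the array. Of these, 1 was called higher and 1 lower, against 1.65 and 2.33% of all genes. *Ldha*, lactate dehydrogenase A, had levels of 14501 and 14861 in young adult mice and 9503 and 9341 in aged mice. Its aged values lay below its young adult ones, by a log2 difference of -0.64 (limma FDR = 0.193). Of the 22 genes, 16 had a negative difference. At an unadjusted P below 0.05 in limma's test 8 passed, 2 higher and 6 lower, against 13.1% of all genes. The median of -0.14 was negative in every setting tried. The brightest gene, *Aldoa*, had a difference of -0.18 and was not called.

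**Figure D4:**
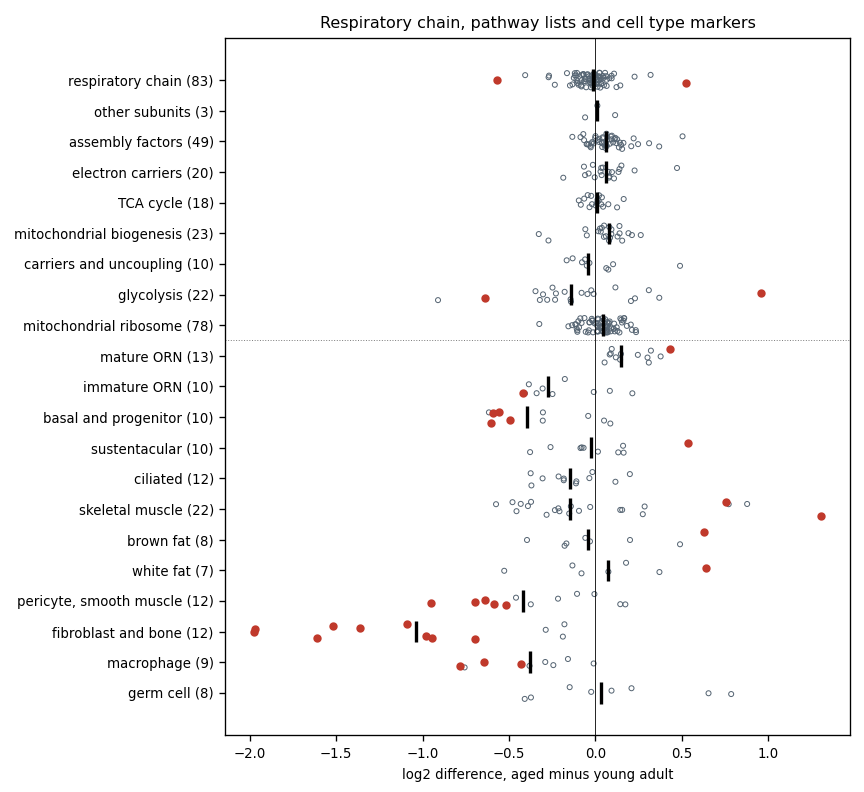
Log2 difference between ages (aged minus young adult) of every gene in the respiratory chain, in 8 lists of neighbouring pathways (above the dotted line) and in 12 lists of cell type markers (below it), with the number of genes in parentheses. Filled red points are called genes, open points are not called, and black bars are medians. Most genes of the respiratory chain and the mitochondrial lists lie close to 0, while fibroblast and bone markers reach beyond -1.9.

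Markers of the cell types of the mucosa were read in the same way, beside 1.65% of all genes called higher and 2.33% called lower. At an unadjusted P below 0.05 in limma's test, 13.1% of all genes passed. Of 13 mature ORN markers, 1 was called higher (*Stoml3*, 0.43) and 0 lower, with all 13 positive, a median of 0.15 and the brightest gene *Omp* at 0.15. Immature ORN markers had 1 of 10 called lower (*Dbn1*, -0.42) and a median of -0.28 (brightest *Lhx2*, 0.084), and basal and progenitor cell markers had 4 of 10 called lower, among them *Top2a* (-0.61), with a median of -0.40 (brightest *Krt5*, -0.49). Of 10 sustentacular markers, 1 was called higher (*Cyp1a2*, 0.54), with a median of -0.026 that was positive with the brightest probe of each gene and without aged array 1 (brightest *Cyp2g1*, 0.16), and of 12 markers of ciliated cells none was called, 3 passed an unadjusted P of 0.05 with limma, and the median was -0.15 (brightest *Tubb4b*, 0.12). Fibroblast and bone markers had 9 of 12 called lower, with a median of -1.04 (brightest *Dcn*, -0.19), and macrophage markers had 3 of 9 called lower, with a median of -0.38 (brightest *Csf1r*, -0.29). White fat markers had 1 of 7 called higher (*Cfd*, 0.64, at a level under 80 on each array), with a median of 0.076 whose sign changed on the slide shared by both ages and without aged array 2 (brightest *Lep*, -0.080). The part of cell composition in the small differences of the respiratory chain genes was not tested.

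Both calls among the 83 genes rested on 4 arrays and lay close to the limit on FDR. With the scanner software's processed signal scaled to the 75th percentile neither was called (FDR = 0.254 for *Cox8b* and 0.265 for *Ndufa4l2* by limma), *Ndufa4l2* was also lost with 75th percentile scaling (0.324) and with cyclic loess (0.252), and the replicate number as a block (0.433) or any single array left out lost both. Exact permutation of these 4 arrays yields no two-sided P under 0.333 for any gene, so the calls rest on the spread that limma shares across genes.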

How the data were processed

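RNA of septal nasal mucosa was measured on 4 one-color arrays, 2 per age. The authors scanned the arrays and deposited, per spot, a median intensity, a local background intensity, a processed intensity from Feature Extraction 11.0.1.1 and quality flags, without normalization between arrays. The labels also name R 3.2.1. In the deposited series table, the value of each of the 62976 spots was this processed intensity.

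Here the local background was taken off the median intensity with the normexp method and an offset of 0 (limma 3.58.1, R 4.3.3), control and outlier spots (88 to 118 per array) were left out, spots of a probe were averaged, and arrays were quantile normalized. Accessions matched 32994 of 56605 probes (58.3%) to a RefSeq gene table of GRCm38.p6, and the other probes kept the array's identifier. Log2 values of the probes of a gene were averaged, and 12 genes with a missing value were left out, which left 45604. The ages were compared with lmFit and eBayes without covariates (2 residual and 1.38 prior degrees of freedom), and 1817 genes were called. The smallest FDR was 0.0945. The fit was tested on simulated data, where it missed 2-fold changes when few genes changed, so a gene that was not called may still differ.

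The members and lists were chosen with earlier results of these data known. Genes named are the called members, the highest and lowest of each complex, the isoform pairs, core subunits, and of each list up to 3 called genes and the brightest. A few others, in counts of 5 or fewer or as defining markers, were chosen after their values were seen. Alternatives were normexp offsets of 16 and 50, the processed intensity, 75th percentile scaling, cyclic loess, probes well above background, the brightest probe per gene, eBayes with an intensity trend, a block for the replicate number, the slide with both ages, and each array left out.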

Additional observations from a re-analysis of the deposited data

How the results depend on the processing

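The median over all 83 genes, -0.016, was -0.034 with cyclic loess and 0.0013 within the slide of both ages. It ran from -0.031 to -0.0020 with each array left out. Complex III was at -0.042 with the processed signal and -0.012 with cyclic loess (left-out arrays -0.025 to 0.020), complex IV at -0.043 with 75th percentile scaling (-0.074 to -0.044) and complex V at -0.010 within that slide (-0.053 to -0.0091). The genes called lower numbered 3 with an offset of 50 and with probes well above background alone, 6 with an intensity trend, and 0 with the processed signal, 75th percentile scaling or cyclic loess. The genes called higher numbered 2 with the trend and 0 with the processed signal. With any 1 array left out, the lone array of an age is assumed to vary like the others, and 0 were called in either direction (0 to 0). The added calls were *Cox6b2* and *Cox7a1* in all 3 settings and, with the trend, *Uqcrc2* higher and *Atp5j2*, *Ndufb9* and *Ndufs4* lower. Over all genes and in either direction, the trend called 7130 (15.6%), probes well above background 7151 of 29495 (24.2%) and an offset of 50 gave 4582 (10%). The FDR over the alternatives ran from 0.00341 to 0.683 for *Cox8b* and from 0.0479 to 0.683 for *Ndufa4l2*, and neither changed sign. Over the members followed through the alternatives, 41 of 434 differences changed sign, all in genes that were not called. The causes were not tested.

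With the replicate number as a block, 0 genes were called higher and 0 lower, 2 of the 83 passed an unadjusted P of 0.05 with limma, and the smallest FDR was 0.433. Deviations of same-numbered arrays correlated at -0.078 across all genes and 0.449 across the 83 genes, and genes are not independent replicates. The arrays numbered 1 shared a slide, and no other pairing is stated. The slide as a random block could not be fitted, since these 4 arrays gave no estimate of its correlation.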
